A study of Mus musculus with 8 samples.

Results

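The immunoglobulin variable (V) segments were taken as all genes whose symbol starts with Ighv, Igkv or Iglv. The annotation named 348 such genes, and all were present in the count table of 56953 gene identifiers. The 95 segments with 20 or more counts summed over the 4 tumour libraries are described here. They comprised 37 of 185 Igh genes (chromosome 12), 56 of 160 Igk genes (chromosome 6) and 2 of 3 Igl genes (chromosome 16). Of the other V genes, 74 had 1 to 19 tumour counts and 179 had none. Of the 95, 3 were annotated pseudogenes. The segments were chosen by their summed counts in the same 4 libraries that are compared below, so their differences are given as descriptions. Just outside the threshold stood Ighv14-4, Ighv1-53 and Ighv8-8 with 19 counts and Ighv1-55 with 18. Just inside it stood Ighv1-59, Ighv1-84 and Igkv4-61 with 20.

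Antibody heavy and light chains are each built around a V segment, which a developing B cell picks from a large array in its genome and joins to shorter segments. The heavy chain array is Igh, and the light chain arrays are Igk (kappa) and Igl (lambda). Each array is divided into families of similar sequence, and the first number of a symbol gives the family, so that Igkv10-96 belongs to the kappa family 10. A clone of B cells keeps its chosen segments, and plasma cells, the antibody-secreting stage, make very large amounts of the resulting RNA.

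RNA was sequenced from CT26 cells, a line derived from a colorectal carcinoma of the mouse, as tumours in mice or in culture. Tumours received normal saline or mLJZD, an abbreviation that the labels do not expand, and cultures received for 48 hours 10% control serum or 10% serum with mLJZD. Each of the 4 groups had 2 libraries. All tumours carry the same cell line; the labels name no host strain, age, dose or duration for the tumours, and do not tell if the pair of libraries in a group stands for separate animals or cultures. The p-values thus rest on the spread of these libraries alone. Tumour libraries held 16594912 to 19793632 counts and culture libraries 20439449 to 29363861.

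Immunoglobulin V counts were found in the tumours and hardly at all in the cell line by itself. Of the 4 culture libraries, 3 had no count in any of the 348 genes. The fourth, mLJZD culture 2, had 2 counts, both in Igkv4-50. A count of 0 in a culture library allows up to 0.128 to 0.147 CPM (counts scaled by the library total to a common size), taking 3 counts as the limit. These limits cover counting error only, as do the intervals below.

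The sequences below show a stretch near the end of the transcript for the 5 segments with the most counts in mLJZD tumours, followed by the 2 segments whose values in the 2 groups overlapped. Each is a stretch of the segment's longest transcript in GENCODE M21, an annotation of the build GRCm38 and of the reference mouse strain, read 5′ to 3′. Capitals mark the last match to TANTNNTGN within the final 80 bases on the transcript's strand, where N is any base: a tyrosine codon can fill its first letters and a cysteine codon its last. The capitals stand near the end of the framework, just before the most variable antigen-binding loop. Up to 20 bases after the capitals are shown, and a stretch was not cut where the V region ends. The match was found in 94 of the 95 segments and in 82.2% of all 348 V genes.
Igkv10-96: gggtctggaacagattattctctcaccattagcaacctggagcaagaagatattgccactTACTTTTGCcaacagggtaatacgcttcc
Igkv1-110: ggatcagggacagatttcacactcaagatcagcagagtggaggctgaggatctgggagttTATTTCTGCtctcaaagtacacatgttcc
Ighv3-8: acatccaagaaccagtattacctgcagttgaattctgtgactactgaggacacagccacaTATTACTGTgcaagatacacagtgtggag
Ighv1-52: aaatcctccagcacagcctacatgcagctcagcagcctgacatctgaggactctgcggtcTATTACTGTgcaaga
Ighv4-1: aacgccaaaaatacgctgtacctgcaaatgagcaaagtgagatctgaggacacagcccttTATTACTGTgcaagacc
Igkv8-30: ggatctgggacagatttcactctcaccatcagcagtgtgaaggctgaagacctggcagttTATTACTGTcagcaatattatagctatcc
Igkv14-126: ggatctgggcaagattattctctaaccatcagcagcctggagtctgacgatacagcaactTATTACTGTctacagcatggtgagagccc

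The segments resemble each other closely, which limits how far a single segment can be told from its relatives. The median identity of a member to its nearest V gene was 95.4%, and 52 of the 95 stood at 95% or more. Of the stretches of 50 bases in a member, 20% or more occurred unchanged in another V gene for 60 members and none did for 10. Ighv1-52 shared 67.2% of its 50-base stretches with another V gene, Igkv1-110 50.9% and Igkv10-96 32.6%. For Ighv3-8 the share was 0.290%. How the counting handled reads with more than 1 match is not given in the sources used here. The level of a single segment is therefore the level assigned to that reference gene.

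The summed level of all 348 V genes, which does not depend on the threshold of 20 counts, was about an order of magnitude higher in mLJZD tumours. It was 28.3 and 26.9 CPM in the saline libraries and 309.9 and 299.7 CPM in the mLJZD libraries, and the groups did not overlap. The group means were 27.6 ± 0.96 and 304.8 ± 7.16 CPM (SD, n = 2), a ratio of 11.04. The ratio was 9.66 without Igkv10-96, Igkv1-110 and Ighv3-8, the segments with the most counts. In bulk tissue, more cells of a type and more RNA per cell cannot be told apart. With 2 libraries a group an exact two-sided permutation test cannot give a p below 0.333, so none is given for this sum.

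All 3 arrays were at higher levels in mLJZD tumours. Igh V genes were at 7.65 ± 0.0440 CPM in saline and 100.9 ± 1.12 CPM in mLJZD tumours (SD, n = 2), a ratio of 13.2. Igk V genes went from 19.4 ± 0.965 to 194.3 ± 8.50 CPM, a ratio of 10.0. Igl V genes went from 0.583 ± 0.0379 to 9.54 ± 0.223 CPM, a ratio of 16.4 that rests on 12 and 11 saline counts. The Igl share of V counts was 2.15% and 2.06% in saline and 3.03% and 3.24% in mLJZD libraries, with overlapping 95% Wilson intervals (1.24% to 3.73% and 1.16% to 3.66%, then 2.61% to 3.51% and 2.78% to 3.77%). As a share of V counts, Igk held 70.9% and 69.4% in the saline libraries and 64.7% and 62.8% in the mLJZD libraries. The 95% Wilson intervals of the saline shares, 67.01% to 74.5% and 65.4% to 73.2%, did not reach those of mLJZD tumour 2, 61.5% to 64.2%, while the interval of mLJZD tumour 1, 63.4% to 65.9%, overlapped that of saline tumour 2.

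**Figure D1:**
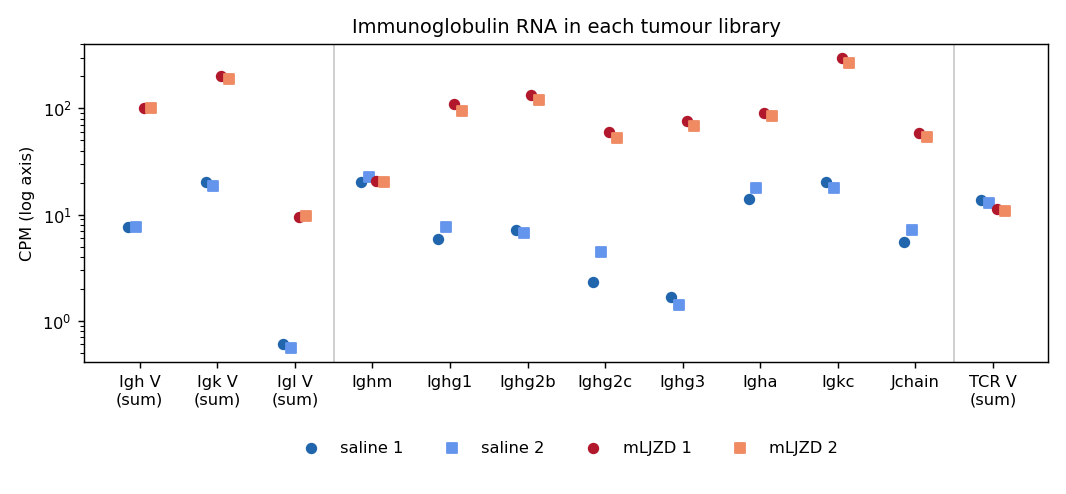
Level of the summed Igh, Igk and Igl V genes, of the constant genes and Jchain, and of the summed T cell receptor (TCR) V segments in each tumour library, as CPM on a log axis; each point is 1 library. The mLJZD points lie above the saline points for every set shown except Ighm and the TCR V segments; levels are to be compared within a column, since genes differ in length.

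The constant genes, to which the V segments are spliced, were not used to choose the segments and were tested. Their list was drawn up with earlier results of these data known, so its count is a description as well. Of 10 tested genes on the list of constant genes and Jchain, 9 rose and none fell, against 15.4% of all 15417 genes tested that rose, 16.0% that fell and 31.4% in either direction (edgeR adjusted p under 0.05). The exception was Ighm, the constant gene of IgM, at 20.1 and 22.4 CPM in saline and 20.6 and 20.1 CPM in mLJZD tumours (log2 fold change -0.03, SE 0.10, edgeR adjusted p = 0.855). Ighg3, an IgG constant gene, had the largest rise of the 10, from 1.68 and 1.42 CPM to 75.2 and 67.9 CPM (log2 5.56, SE 0.12). Igkc, the constant gene of the kappa chain, stood at 20.4 and 17.8 CPM and then at 295.0 and 265.3 CPM (log2 3.91, SE 0.08), and Igha, of IgA, rose by 2.51 (SE 0.08). IgG genes held 33.3% and 33.2% of heavy constant counts in saline tumours and 77.2% and 75.9% in mLJZD tumours.

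V counts and constant counts did not keep 1 ratio. For kappa, the V counts per Igkc count were 0.985 and 1.05 in saline tumours and 0.679 and 0.710 in mLJZD tumours. For the heavy chain, the V counts per constant count went the other way, from 0.148 and 0.127 to 0.204 and 0.231. The groups did not overlap in either ratio (both ratios compare genes of different length within a library).

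Segment by segment, nearly all members were higher in the mLJZD tumours. In 93 of the 95, both mLJZD libraries lay above both saline libraries in CPM, against 27.0% of all 16757 genes with 20 or more tumour counts and 27.9% of the genes tested. No member was lower in both, against 35.5% and 36.6%. Of 81 members that passed the filter on low counts, 73 were called higher by edgeR, against 15.4% of all genes tested. None was called lower, none had an unadjusted p under 0.05 in that direction, and DESeq2 called none lower either. The other 14 members did not pass the filter. The count of 73 fell to 29 without mLJZD tumour 1 and to 46 without mLJZD tumour 2. The median log2 fold change of the tested members was 3.79, or 3.72 with segments absent from saline set to the lower bound of their change, and that of all genes tested was 0.00092. Because 74 members reached 20 counts in mLJZD tumours and not in saline tumours, these counts describe the members and do not support a direction. Among the 16 members with at least 20 saline counts alone, 13 were called higher.

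Igkv10-96 was the leading segment of the mLJZD tumours. It was at 1.62 and 1.67 CPM in saline and 43.5 and 37.3 CPM in mLJZD libraries (log2 fold change 4.65, SE 0.15, edgeR adjusted p = 2.27e-13). Its share of member counts went from 6.10% and 6.59% to 14.6% and 12.9%, so it rose by more than the sum. Igkv1-110 led the saline tumours, at 2.59 and 1.57 CPM, and was second in mLJZD tumours at 20.6 and 18.0 CPM (log2 3.24, SE 0.19). Its share was 9.71% and 6.19% in saline and 6.88% and 6.22% in mLJZD libraries, which overlapped.

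Heavy chain segments came to the top of the mLJZD tumours from no count in saline. Ighv3-8 had 231 and 266 counts in mLJZD libraries, or 12.6 and 16.03 CPM. Ighv1-52 had 253 and 205 counts, or 13.8 and 12.4 CPM. Ighv4-1 had 170 and 159 counts, or 9.28 and 9.58 CPM, and Ighv4-2, annotated as a pseudogene, 132 and 110. Both saline libraries had 0 counts for all 4. Against a floor of 3 counts over the 2 saline libraries, the level of Ighv3-8 was at least 187-fold higher. Ighv1-52 was at least 173-fold higher. The bound was 124-fold for Ighv4-1 and 91.2-fold for Ighv4-2. In kappa, Igkv2-109 with 79 and 71 counts was at least 56.5-fold higher.

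In all, 12 members had no saline count, 8 in Igh and 4 in Igk. Together they held 18.9% of member counts in mLJZD tumours. Within Igh alone, the 8 held 49.6%. A further 23 members had counts in 1 saline library and none in the other, while every member had counts in both mLJZD libraries. Because 74 members reached 20 counts in mLJZD tumours and not in saline tumours, the threshold itself favours empty saline libraries. The numbers in this paragraph therefore describe the members and do not support a direction.

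Ighv4-1 and Ighv4-2 are the only members of their family in the annotation, and both were absent from saline and present in mLJZD tumours. The end of their aligned transcripts is shown because the counts of this pair are hard to separate; capitals mark the 13 bases that differ, and the transcripts differ at no other aligned base.
Ighv4-1: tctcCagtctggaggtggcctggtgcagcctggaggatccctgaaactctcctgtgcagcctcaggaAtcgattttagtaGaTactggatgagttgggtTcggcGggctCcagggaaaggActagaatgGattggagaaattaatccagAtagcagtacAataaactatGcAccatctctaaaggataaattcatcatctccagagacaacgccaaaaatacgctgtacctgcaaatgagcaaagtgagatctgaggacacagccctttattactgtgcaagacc
Ighv4-2: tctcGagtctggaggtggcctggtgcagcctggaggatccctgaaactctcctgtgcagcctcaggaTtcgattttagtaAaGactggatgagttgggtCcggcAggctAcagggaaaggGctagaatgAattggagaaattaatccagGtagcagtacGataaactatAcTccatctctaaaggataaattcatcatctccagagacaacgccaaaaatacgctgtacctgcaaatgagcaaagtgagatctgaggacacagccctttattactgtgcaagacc
The final stretch after the last capital is the same in both genes, so a read from there cannot be assigned to 1 of them. Their identity over 362 aligned bases was 96.4%.

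Igkv10-96 has a close relative as well. Igkv10-94, shown for its likeness to the leading segment, had 0 counts in both saline libraries and 59 and 57 counts, or 3.22 and 3.43 CPM, in the mLJZD libraries, while Igkv10-96 had 32 and 33 counts in saline. The pair is shown in the same way, with 16 differing bases in capitals.
Igkv10-96: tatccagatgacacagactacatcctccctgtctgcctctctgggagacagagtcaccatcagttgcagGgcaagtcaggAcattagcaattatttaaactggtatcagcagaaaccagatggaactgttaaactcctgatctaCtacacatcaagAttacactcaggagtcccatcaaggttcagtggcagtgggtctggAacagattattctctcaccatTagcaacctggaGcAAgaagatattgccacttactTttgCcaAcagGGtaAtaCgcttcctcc
Igkv10-94: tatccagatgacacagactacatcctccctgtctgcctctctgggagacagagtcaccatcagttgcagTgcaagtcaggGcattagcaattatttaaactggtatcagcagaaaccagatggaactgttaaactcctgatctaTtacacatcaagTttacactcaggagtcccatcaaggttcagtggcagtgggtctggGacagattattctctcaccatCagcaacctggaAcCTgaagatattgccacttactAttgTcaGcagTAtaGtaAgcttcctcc
In contrast to the Ighv4 pair, the differences reach the end of the segment, the part that lies in the third loop. Their identity was 95.4% over 347 aligned bases.

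Other segments among the 10 highest of the mLJZD tumours were present in saline too. Igkv12-41 was at 0.863 and 1.26 CPM in saline and 8.79 and 8.07 CPM in mLJZD libraries (log2 3.01, SE 0.24). Iglv1, the main lambda segment, was at 0.406 and 0.505 and then 8.35 and 8.14 CPM (log2 4.19, SE 0.28). Igkv6-17 was at 0.812 and 0.455 and then 7.31 and 7.71 CPM (log2 3.59, SE 0.28). Igkv3-10 was at 0.457 and 0.101 and then 7.53 and 6.81 CPM (log2 4.69, SE 0.36). The replicates of the mLJZD group were close for each of these, and the spread was wider in saline, where a level rests on few counts, 9 and 2 for Igkv3-10. Without saline tumour 1 the log2 fold change of Igkv3-10 was 6.08, and without saline tumour 2 it was 3.99.

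Some segments with a level near 1 CPM in saline did not pass the test. Igkv8-30 was at 0.914 and 0.909 CPM in saline and 1.09 and 0.844 CPM in mLJZD libraries, with overlapping groups (log2 0.12, SE 0.42, edgeR adjusted p = 0.859). Igkv14-126 was the other segment with overlapping groups, at 0.559 and 0.657 and then 0.546 and 0.723 CPM (log2 0.09, SE 0.49, edgeR adjusted p = 0.922); it was named after its values were seen. Counting error alone allows a mLJZD level of 0.648 to 1.76 times the saline level for Igkv8-30 and 0.554 to 1.93 times for Igkv14-126. Their shares of member counts were lower in mLJZD tumours, from 3.43% and 3.59% to 0.365% and 0.292% for Igkv8-30. Ighv1-14, an annotated pseudogene, was at 1.12 and 0.505 and then 1.42 and 1.57 CPM and did not pass (log2 0.91, SE 0.42, edgeR adjusted p = 0.119); without saline tumour 1 its log2 fold change was 1.57 (edgeR adjusted p = 0.0731).

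Of the saline leaders, 5 more rose, by less than the sum of all segments. They were picked by their saline counts, which favours a smaller rise. Igkv6-15 went from 1.68 and 1.06 to 5.95 and 7.47 CPM (log2 2.32, SE 0.26). Ighv5-17 went from 1.07 and 0.960 to 3.82 and 3.56 CPM (log2 1.89, SE 0.30), and its edgeR adjusted p was 0.0520 without mLJZD tumour 1. Igkv4-72 rose by 2.06 (SE 0.37) and Igkv4-68 by 1.71 (SE 0.34), and without mLJZD tumour 1 their edgeR adjusted p-values were 0.104 and 0.0947; for Igkv4-72 it was 0.0973 without mLJZD tumour 2, and its log2 fold change was 2.83 without saline tumour 1. Igkv14-111, at 0.863 and 0.808 and then 1.91 and 1.75 CPM (log2 1.16, SE 0.37, edgeR adjusted p = 0.0235), was no longer called when any 1 of the 4 libraries was left out (edgeR adjusted p = 0.0817 to 0.153) or with DESeq2 (adjusted p = 0.209).

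**Figure D2:**
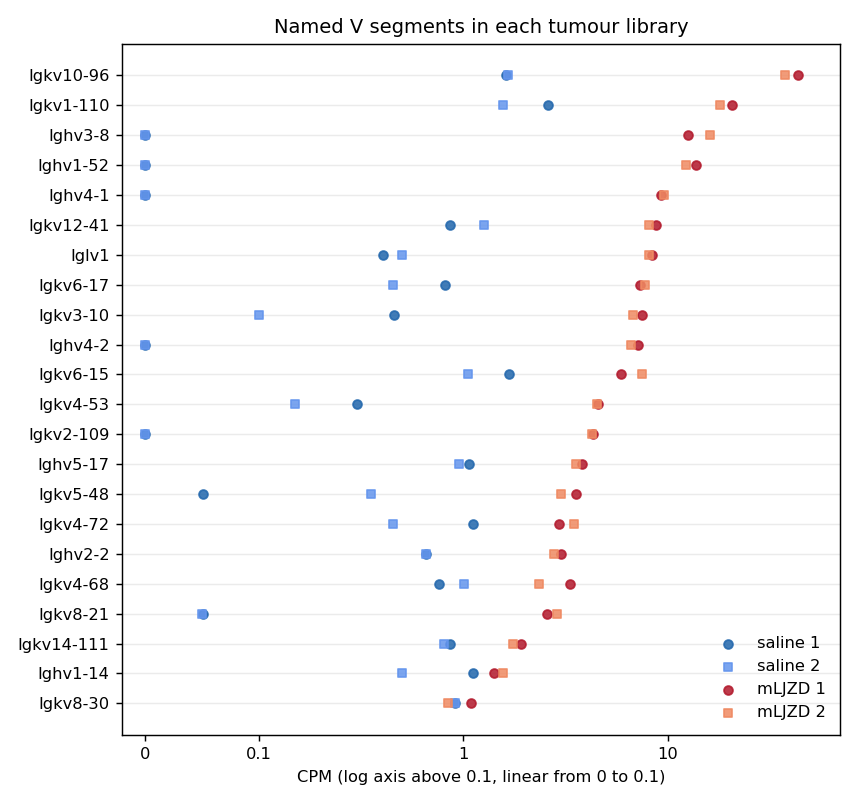
CPM of 22 named V segments in each tumour library, on an axis that is logarithmic above 0.1 CPM and linear below; each point is 1 library. For 5 segments both saline points lie at 0, and Igkv8-30 at the bottom is the row where the groups overlap.

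Few segments held most of the counts, and about as few in both groups. With segments ranked by counts within a library, 11 and 13 of the 95 were needed to reach 50% of member counts in the saline libraries, and 12 and 13 in the mLJZD libraries. The 10 highest held 47.4% and 42.7% in saline (95% Wilson intervals 43.2% to 51.7% and 38.5% to 47.1%) and 46.5% and 45.5% in mLJZD libraries (45.2% to 47.8% and 44.1% to 46.9%). These intervals overlapped. On a scale of counts per base of transcript, for lengths of 347 to 480 bases, 13 segments in saline and 12 in mLJZD tumours again held 50% of the group's sum, and 10 and 9 of the 10 highest were the ones ranked highest by counts.

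The single leading segment took a larger share in mLJZD tumours. Igkv10-96 held 14.6% and 12.9% of member counts in the mLJZD libraries (95% Wilson intervals 13.7% to 15.5% and 11.99% to 13.9%), whereas the leader held 9.71% in saline tumour 1, Igkv1-110, and 6.59% in saline tumour 2, Igkv10-96 (7.47% to 12.6% and 4.73% to 9.11%). The intervals of saline tumour 1 and mLJZD tumour 2 overlapped. To reach 80%, 30 segments were needed in each saline library and 39 and 40 in the mLJZD libraries. These numbers describe the members alone: depth differed, with 525 and 501 member counts in saline and 5478 and 4794 in mLJZD libraries, and most members reached the threshold through the mLJZD libraries. Over all 348 V genes, which no threshold chose, and at a common depth of 533 counts, the expected number of genes with a count was 84.3 and 93.0 in saline and 98.9 and 99.0 in mLJZD libraries. The gap between the saline libraries was larger than that from saline tumour 2 to either mLJZD library.

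**Figure D3:**
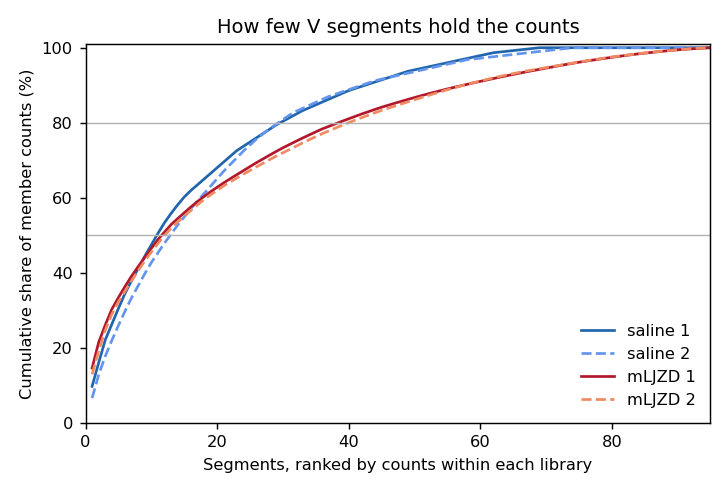
Cumulative share of member counts (%) against the number of segments, ranked by counts within each tumour library; grey lines mark 50% and 80%. The 4 curves cross 50% at 11 to 13 segments, and the saline curves cross 80% at 30 segments, before the mLJZD curves at 39 and 40.

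Within the arrays, the picture depended on how many leading segments were counted. In Igh, 5 and 6 of 37 segments reached 50% of Igh member counts in saline and 5 in each mLJZD library. The 3 highest Igh segments held 43.4% and 33.3% in saline and 38.2% and 40.1% in mLJZD libraries, with overlapping groups. The 10 highest Igh segments held 76.7% and 78.3% in saline (95% Wilson intervals 68.7% to 83.2% and 70.4% to 84.5%) and 67.6% and 64.8% in mLJZD libraries (65.4% to 69.8% and 62.4% to 67.1%). In Igk, the 3 highest of 56 held 30.2% and 24.7% in saline (25.8% to 35.0% and 20.5% to 29.4%) and 37.2% and 34.3% in mLJZD libraries (35.6% to 38.8% and 32.7% to 36.0%). The 10 highest Igk segments held 61.7% and 57.6% in saline and 59.2% and 57.6% in mLJZD libraries, which overlapped. For the 10 highest Igh segments the intervals of saline tumour 1 and mLJZD tumour 1 overlapped. For the 3 highest Igk segments those of saline tumour 1 and mLJZD tumour 2 did. A saline library had 129 Igh member counts, so these shares are coarse there. Ranking a library by its own counts also raises the share of its leading segments, most where counts are few. The intervals of such shares, here and above, take no account of the ranking.

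The leading segments were in part different ones. Of the 10 highest segments, 3 were common to both groups: Igkv10-96, Igkv1-110 and Igkv12-41. The 10 highest of the saline tumours held 43.9% of saline counts and 30.3% of mLJZD counts. The 10 highest of the mLJZD tumours held 45.9% of mLJZD counts and 23.7% of saline counts. Each set was ranked by its own group's counts, which raises its share in that group, most where counts are few. Adding up, for each segment, the smaller of its shares in 2 libraries gave 91.6% for the pair of mLJZD libraries and 72.5% for the pair of saline libraries. The 4 pairings of a saline with a mLJZD library gave 53.1% to 55.0%. The lower value for the saline pair goes with 525 and 501 counts a library, and the part of depth in it was not tested.

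The members of both groups varied between replicates by somewhat more than counting noise. Over segments with 5 or more expected counts, the chi-square between the 2 libraries divided by its degrees of freedom was 2.01 for 30 segments in saline and 1.61 for 95 segments in mLJZD tumours. Over all genes tested it was 2.68 and 4.10. This value depends on the counts of a gene, and no set of genes with like counts was compared. No pair agreed within sampling noise, so all libraries were counted separately.

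Families differed in how much they contributed. Shares and summed CPM of families, here and in the next paragraph, cover the members alone. The threshold was reached in mLJZD tumours and not in saline tumours by 74 members, which favours higher ratios. These family values are therefore descriptions. Members were found in 10 of 16 Igh families and 16 of 20 Igk families. Ighv1, the largest heavy chain family with 93 annotated genes, had 13 members and a share of member counts of 9.36% in saline and 9.05% in mLJZD tumours, although its leading segment Ighv1-52 was absent from saline. Ighv3 went from 2.14% to 6.15%, through Ighv3-8, and the summed CPM of its 3 members was 32.6 times higher. Ighv4 went from no count to 5.56%. Ighv2 went in share from 5.56% to 2.71% while its summed CPM was 5.51 times higher. Its leader Ighv2-2 was at 0.660 and 0.657 and then 3.00 and 2.77 CPM (log2 2.15, SE 0.34), and its edgeR adjusted p was 0.0512 without mLJZD tumour 1.

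In kappa, family 10 had a larger share in mLJZD tumours and family 14 a smaller one. Igkv10 went from 6.34% to 14.9% of member counts, and Igkv16, a family of 1 gene, from 0.585% to 2.25% with a 43.4 times higher CPM. Igkv4, the largest kappa family with 13 members of 33 genes, went from 12.8% to 9.55%. Its leader Igkv4-53 was at 0.305 and 0.152 and then 4.58 and 4.52 CPM (log2 4.31, SE 0.39). Igkv6 went from 12.3% to 7.67% and Igkv1 from 11.3% to 8.77%. Igkv14 went from 6.14% to 0.993%, with a summed CPM 1.84 times higher. Igkv8 was mixed: Igkv8-21, with 1 count in each saline library, was at 2.56 and 2.89 CPM in mLJZD tumours, 53.7 times higher with a counting interval of 14.5 to 450.0, while Igkv8-30 overlapped. Igkv5-48, which leads family 5, was at 0.0508 and 0.354 CPM and then 3.55 and 3.01 CPM (log2 4.01, SE 0.49). Its log2 fold change was 3.22 without saline tumour 1 and 5.87 without saline tumour 2, and its edgeR adjusted p was 0.0719 without mLJZD tumour 1.

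**Figure D4:**
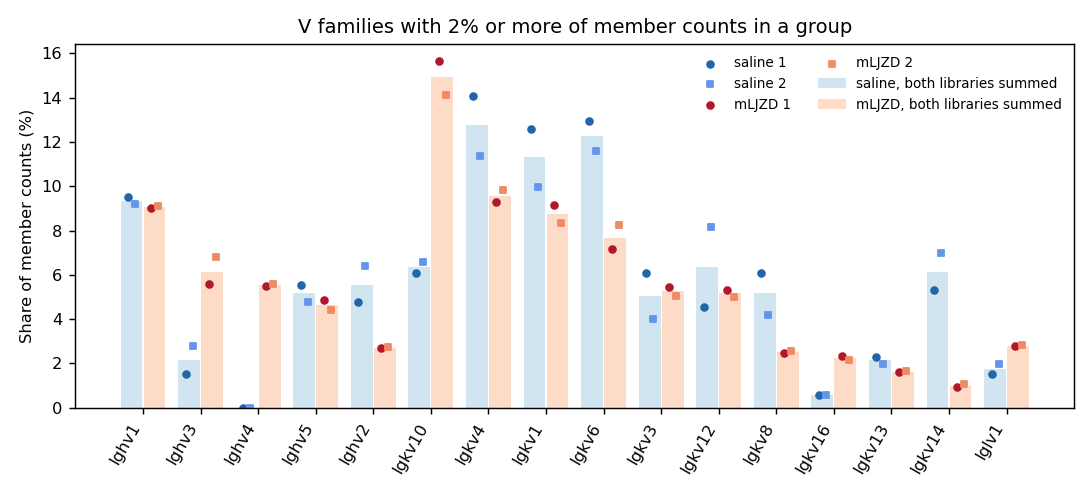
Share of member counts (%) of each V family with 2% or more in a group; bars are both libraries of a group summed and points are single libraries. Igkv10, Ighv3, Ighv4, Igkv16 and Iglv1 take a larger share in mLJZD tumours, with no overlap between the libraries. Igkv14, Igkv8, Ighv2, Igkv4, Igkv6, Igkv1, Igkv13 and, by little, Ighv1 take a smaller one without overlap. The libraries overlap for Ighv5, Igkv3 and Igkv12.

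Position in the array was compared by order alone, counting from the segment nearest the constant genes in GENCODE M21. The nearest 62 Igh genes held 46.7% and 53.3% of Igh V counts in saline and 50.7% and 47.6% in mLJZD libraries, which overlapped. The farthest 61, which include Ighv1-52, held 14% and 10.53% in saline and 23.0% and 21.8% in mLJZD libraries. In Igk the farthest 53 genes, which include Igkv10-96, held 35.4% and 38.6% in saline and 48.3% and 45.0% in mLJZD libraries.

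Of the B cell and plasma cell genes other than the antibody genes, some rose and most did not pass the test. The counts in this and the next paragraph stand against 15.4% of all genes tested that rose and 16.0% that fell. Of 8 tested genes of B cell identity, 3 rose and none fell, led by Pax5, the B lineage transcription factor, with 7 and 10 counts in saline and 82 and 80 in mLJZD tumours (log2 3.44, SE 0.34), and Cd79a, a subunit of the B cell receptor (1.76, SE 0.38). Cd22 and Ebf1, at -0.44 (SE 0.21) and -0.23 (SE 0.27), did not pass. Ms4a1, which encodes CD20, had 5 and 4 counts and then 10 and 9 (1.26, SE 0.62, edgeR adjusted p = 0.136). The summed level of that list was 21.9 and 22.2 CPM in saline and 31.8 and 30.8 CPM in mLJZD tumours. Of 11 tested genes of plasma cells and secretion, 4 rose and none fell: Mzb1, a chaperone of antibody assembly at 0 and 3 and then 10 and 12 counts (2.98, SE 0.84), Pou2af1, the coactivator of octamer factors at immunoglobulin promoters (2.38, SE 0.42), Slamf7 (0.92, SE 0.17) and Prdm1, a regulator of plasma cell fate (0.91, SE 0.12). The other 7 did not pass, among them Sdc1 at -0.04 (SE 0.06), Irf4 at -0.30 (SE 0.24), Tnfrsf17 at -0.33 (SE 0.45) and Xbp1 at 0.12 (SE 0.06). The median of this list was 0.12. Its summed level was 498 and 503 CPM in saline and 502 and 507 CPM in mLJZD tumours. Much of that sum came from genes that the cultures also express. Mzb1 had 10 and 0 counts in the control cultures and 0 and 1 in the mLJZD cultures. Tnfrsf17 had 57 and 63, then 43 and 30. Of the 9 genes of V(D)J recombination, the surrogate light chain and class switching, Rag1, Rag2, Igll1 and Vpreb2 had no count in any tumour library, and 1 was tested, Ung, a repair gene also expressed by the cultures, which fell (-0.66, SE 0.11). Of the octamer factors, Pou2f1 fell (-0.46, SE 0.10) and Pou2f2 did not pass (-0.01, SE 0.16).

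Markers of other cells moved in the same tumours. Neutrophil genes rose in 9 of 10 tested cases, with summed levels of 12.2 and 11.2 CPM in saline and 36.0 and 30.9 CPM in mLJZD tumours, and all 5 tested erythroid genes rose (22.3 and 18.6, then 47.5 and 44.3 CPM), with Epb42 and Car1 at 0. Of the tested skeletal muscle genes, 13 of 15 fell and 1 rose (3144 and 3171, then 597 and 589 CPM). Genes of lymph node stroma and vessels rose in 3 of 5 cases and fell in 1, and their summed level was 218 and 209 CPM in saline and 237 and 233 CPM in mLJZD tumours, most of it from genes that the cultures also express. The part of these cells in the V segment levels was not tested.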

How the data were processed

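The raw counts of all 8 libraries were deposited in a single table. The build GRCm39 and the tools HISAT2 2.2.1, featureCounts 2.0.3, SAMtools 1.14, FastQC 0.12.1 and Trim Galore are named, with no role or order, per the submitters' processing notes. Neither annotation release nor strandedness is given in the sources used here. GENCODE M21 (GRCm38) gave a symbol to 52029 identifiers; the others held 0.343% to 0.596% of a library. Coordinates of GENCODE M21 were used only to order the segments within an array. All genes of the 4 tumour libraries were fitted with edgeR 4.0.16 in R 4.3.3 (quasi-likelihood F test, two-sided, TMM, filterByExpr, Benjamini-Hochberg over all 15417 genes, called at an adjusted p under 0.05). SE, a standard error, was taken as the fold change on the log2 scale over the square root of F. The fit was tested on simulated data with the same spread for all genes, which does not cover segments with few saline counts specifically. CPM uses library totals. Fold bounds use a floor of 3 counts over both libraries of a group. Intervals of a fold are exact (95%) and use both libraries of a group summed. The expected number of genes with a count at a common depth was computed analytically. DESeq2 1.42.0 was an alternative.

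The members and gene lists were chosen with earlier results of these data known. Named segments are the 10 highest of each group, the 5 largest rises (no member fell) among called members without overlap, the leader of each family with at least 3 members, and up to 4 called genes of other lists with the largest change. Ighm, Igkc, Igha, Ms4a1, Pou2f2, Cd22, Ebf1, Sdc1, Irf4, Tnfrsf17, Xbp1, Igkv14-126 and Igkv10-94 were added to these. Alternatives were DESeq2, library totals only, no filter on low counts, a replicate block and leaving out each library. Results for some list genes are not reported here.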

Additional observations from a re-analysis of the deposited data

How the results depend on the processing

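Depth limits single segments in saline tumours, where 95 members share 525 and 501 counts. DESeq2 called 1447 genes higher and 1420 lower over all genes, against 2371 and 2464 with edgeR. Leaving out 1 library gave 552 to 1754 genes higher, 535 to 1795 lower, and 29 to 78 members higher, the lowest each time without mLJZD tumour 1; all 29 were among the 73. No member was called lower in any fit run, and the log2 fold change of Igkv8-30, 0.12 with all libraries, ranged from -0.0905 without mLJZD tumour 1 to 0.31 without mLJZD tumour 2; the cause was not tested. The ratio of summed V levels was 9.66 without the 3 highest segments, an alternative added after seeing the data, and 10.8 to 11.3 in the others. Same-numbered libraries are not stated to be paired, and the correlation of their deviations was -0.106 over 15417 genes. With the replicate block 73 members, 2178 genes higher and 2283 lower were called, and with the crossed pairing, also added after seeing the data, 73, 2641 and 2770.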

Other observations

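T cell receptor V segments, which T cells rearrange in the same manner, did not share the higher level. Over 170 such genes the sum was 13.8 and 12.9 CPM in saline tumours and 11.4 and 10.8 CPM in mLJZD tumours, and no culture library had a count. Of 9 tested segments, 2 rose and 4 fell (edgeR adjusted p under 0.05), against 15.4% of all genes tested that rose and 16.0% that fell. Trbv14 went against the sum, with 1 count in each saline library and 56 and 41 counts in the mLJZD libraries (log2 5.63, SE 0.58). Trbv13-1 fell from 1.83 and 1.97 to 0.546 and 0.362 CPM (log2 -2.01, SE 0.43), and Trgv2 from 1.98 and 1.97 to 0.546 and 0.783 CPM (log2 -1.54, SE 0.39). Of the constant genes of the beta chain, Trbc1 rose by 0.97 (SE 0.16) and Trbc2 fell by 0.49 on the log2 scale (SE 0.15). Trav17 had 19 and 13 counts in saline and none in either mLJZD library. Trbv14, Trbv13-1, Trgv2 and Trav17 were named after their values were seen.

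Among 13 tested T cell genes, 1 rose and 2 fell, Cd8a at -0.55 (SE 0.12) being the second to fall, which is no larger a share in either direction than over all genes tested. The 14 immunoglobulin J segments, the short pieces that follow V in a rearranged gene, had 4 and 5 counts in saline and 11 and 24 counts in mLJZD tumours, and none reached 20 over the 4 libraries.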
